A study of Rattus norvegicus with 20 samples.

Results

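The 9 genes described here are transcription factors that have been named as candidate regulators of the promoter of Aqp2, the vasopressin-regulated water channel of the principal cell. They are Gata2, Gata3, Elf3, Elf5, Cebpb, Creb1, Crem, Tfap2b and Grhl2, chosen by symbol, and each matched 1 row among the 32545 genes counted. The data are RNA-seq libraries of microdissected cortical collecting ducts, 1 library per rat, from 20 male Sprague-Dawley rats aged 5 weeks. Every rat, controls included, carried a minipump under the skin that released 5 ng of DDAVP per hour, an analogue of vasopressin that acts on its V2 receptor. Control rats received 25 mL of water per day in gelled food and water-loaded rats 50 mL per day. The ducts were taken at day 1 (3 control and 3 water-loaded rats), day 2 (4 and 4) or day 4 (3 and 3). The comparison addresses vasopressin escape, in which a collecting duct under constant vasopressin stimulation loses Aqp2 when water intake is high.

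Vasopressin binds the V2 receptor of the principal cell, raises cAMP and activates protein kinase A, and Aqp2 transcription follows over hours to days. CREB-type factors bind cAMP response elements, and GATA, ETS, AP-2, C/EBP and Grainyhead factors bind their own short motifs, so a promoter can be read by several families at once. Phosphorylation and movement into the nucleus control many of these factors, and mRNA levels do not measure either. A cortical collecting duct holds principal cells and acid- or base-secreting intercalated cells, and in bulk ducts fewer cells of a type and less RNA per cell cannot be told apart.

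The promoter windows below are the 250 bases upstream of the annotated start in the RefSeq table for build GRCr8, and 6 of the 9 factors had an entry. They are printed 5′ to 3′ on the strand of the gene. Capitals mark matches of 2 motifs on either strand, the GATA core GATAA and the cAMP response element half-site TGACG. The Aqp2 window (chr7:132590036-132590285, plus strand) is shown because its mRNA is what these factors are set against. The Gata3 window (chr17:73553298-73553547, plus strand) belongs to the factor that varied most closely with Aqp2. Crem has 3 annotated starts, and those shown (chr17:58984547-58984796 and chr17:58985240-58985489, plus strand) hold a whole response element.
Aqp2: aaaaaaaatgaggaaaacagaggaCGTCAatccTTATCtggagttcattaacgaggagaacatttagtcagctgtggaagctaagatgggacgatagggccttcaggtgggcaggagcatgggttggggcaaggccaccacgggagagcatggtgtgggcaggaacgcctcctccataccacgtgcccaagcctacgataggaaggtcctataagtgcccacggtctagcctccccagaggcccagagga
Gata3: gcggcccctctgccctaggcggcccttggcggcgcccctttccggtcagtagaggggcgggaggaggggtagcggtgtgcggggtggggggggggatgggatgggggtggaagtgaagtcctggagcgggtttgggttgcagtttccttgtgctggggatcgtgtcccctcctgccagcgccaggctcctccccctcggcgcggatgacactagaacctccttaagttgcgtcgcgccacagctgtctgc
Crem start 2: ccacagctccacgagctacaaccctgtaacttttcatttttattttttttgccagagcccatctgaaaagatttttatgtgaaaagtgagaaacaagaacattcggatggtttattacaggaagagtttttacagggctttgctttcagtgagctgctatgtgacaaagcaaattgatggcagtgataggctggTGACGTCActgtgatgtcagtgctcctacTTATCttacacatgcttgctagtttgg
Crem start 3: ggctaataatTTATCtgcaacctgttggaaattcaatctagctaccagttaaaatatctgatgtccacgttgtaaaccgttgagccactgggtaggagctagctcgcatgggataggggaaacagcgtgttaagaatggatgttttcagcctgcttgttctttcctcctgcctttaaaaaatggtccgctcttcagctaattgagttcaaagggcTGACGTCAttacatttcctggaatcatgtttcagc

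In the Aqp2 window the half-site lay on the reverse strand at bases -226 to -222 from the start and GATAA on the reverse strand at -217 to -213, without overlap. GATAA occurred in 23.5% and TGACG in 18.2% of the 33469 promoter windows of the same length. The ETS core GGAAG was found at -175 to -171 and at -50 to -46, and 63.3% of all windows hold it. The whole element TGACGTCA, the AP-2 motif GCCNNNGGC, the C/EBP motif TTGCNNAA and the Grainyhead motif AACCNGTT had no match in the Aqp2 window. Their shares over all windows were 1.59%, 12.6%, 9.22% and 1.76%. The Gata3 window held neither GATAA nor TGACG, and it had GGAAG at -142 to -138 and GCCNNNGGC at -239 to -231 and -229 to -221. Crem start 2 held TGACGTCA at -56 to -49 and start 3 at -35 to -28; each such match is also 2 overlapping half-sites, 1 per strand. A match describes letters in these windows and is not a binding site.

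Levels were compared between genes per transcript length, as FPKM deposited by the authors (fragments scaled to transcript length and library size). Gata2 had the highest median over the 20 rats, at 151.1 FPKM, with Elf3 next at 141.8, and their ranges of 60.7 to 301.4 and 96.6 to 345.8 overlapped. Crem at 77.5 and Gata3 at 68.3 followed, also with overlapping ranges of 25.8 to 238.1 and 39.4 to 228.3. Next came Grhl2 at 13.5 (0.858 to 32.3), whose range overlapped that of Crem, and Tfap2b at 6.79 (0.200 to 15.8), whose range overlapped that of Grhl2. Creb1 followed at 1.44 (0.0125 to 8.91). Elf5 and Cebpb were at the bottom, with medians of 0 and 0.0168 FPKM and highest values of 1.302 and 0.459. On the same scale Aqp2 itself had a median of 4819 FPKM.

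**Figure D1:**
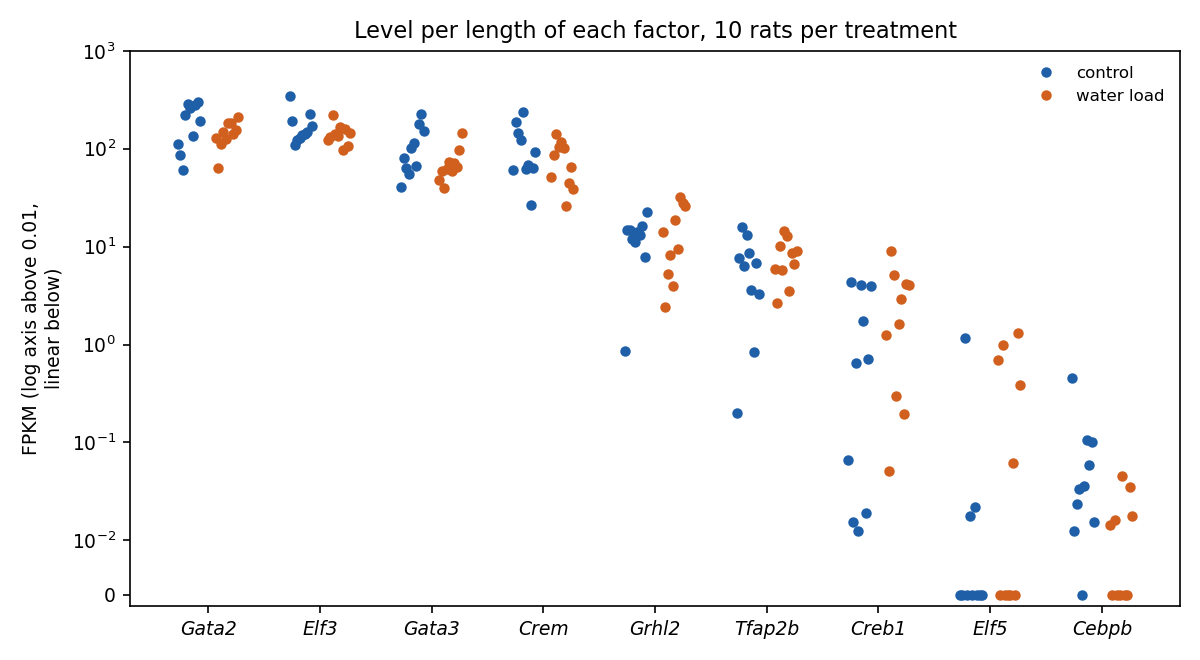
FPKM of each factor in 10 control (blue) and 10 water-loaded rats (orange), 1 point per rat, on an axis that is logarithmic above 0.01 and linear below. Gata2, Elf3, Crem and Gata3 had medians of 68.3 to 151.1 FPKM, and many points of Elf5 and Cebpb lie at or near 0.

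Libraries held 33527913 to 74868598 reads on genes, so that 3 counts, taken as the limit that a count of 0 allows, were worth 0.0414 to 0.0926 CPM. CPM is a gene's count scaled to the library's reads on genes after TMM adjustment, and the levels in single libraries below are in this unit. Control 1 and water-loaded 2 of day 1 stood apart, with 12665 and 12788 detected genes where the median was 13660. Their TMM factors were 0.645 and 0.686, against 1.02 at the median. Aqp2 was present in every library at 9242 CPM or more, so the ducts held principal cells. In bulk ducts this does not show which cells express the 9 factors. The ducts also held intercalated cell markers, whose sum over 9 genes was 7246 to 11831 CPM in control and 8731 to 13797 CPM in water-loaded rats. For the 15 proximal tubule markers the sum was 59.7 to 3047 CPM in control rats and 111 to 8617 CPM in water-loaded rats, the highest in water-loaded 2 of day 1. Over 6 thick limb and distal tubule markers it was 95.4 to 6411 CPM in control and 201 to 13019 CPM in water-loaded rats. Most of that sum was Calb1, with means of 1099 and 2595 CPM in control and water-loaded rats. No other gene of that list had a mean above 98.3 CPM in either treatment. Stromal and endothelial markers (9 of 10 matched) summed to 12.3 to 1766 CPM in control and 18.5 to 388 CPM in water-loaded rats, and 8 immune markers to 31.3 to 883 and 121 to 670 CPM. Of the defining markers Ptprc, of leukocytes, was at 0 in 12 libraries and Slc5a2, of the proximal tubule, in 10. The part of these cells in the results below was not tested except where a value is given.

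Aqp2 was 28840 ± 11930 CPM in control and 13370 ± 3746 CPM in water-loaded rats (mean ± SD, n = 10 each, days together). Over the average of the 3 days it fell 2.10-fold, with a log2 difference of -1.07 (SE 0.19, edgeR quasi-likelihood test, adjusted p = 0.0262). The call was lost with detected genes as covariate (adjusted p = 0.0935), without day 1 (0.0554), and in 9 of the 20 fits that left out 1 library (edgeR adjusted p = 0.0502 to 0.0910). Those 9 were control 1 and water-loaded 3 of day 1, control 3 and water-loaded 1 and 2 of day 2, and controls 1 and 2 and water-loaded 1 and 2 of day 4. The basolateral water channel Aqp3 fell 3.02-fold (log2 difference -1.59, SE 0.21, edgeR adjusted p = 0.00229). None of the 8 factors that passed the filter on low counts was called at an adjusted p under 0.05, where 0.159% of the 14472 genes tested were. For 3 of them, Gata3, Gata2 and Elf3, the unadjusted p was under 0.05, all with lower values under water load, against 13.5% of all genes in either direction and 6.05% lower. The median log2 difference was -0.48 over the 7 factors other than Elf5 and 0.01 over all genes tested. DESeq2 and limma-voom called 714 and 63 genes where edgeR called 23, and 0 factors. At the single days 0 factors were called by any of the 3 tools. All genes differed by tool, with 0% called by edgeR at each day, 1132, 77 and 319 genes called by DESeq2 at days 1, 2 and 4, and 2, 20 and 0 by limma-voom. Aqp2 at day 4 was called by DESeq2 (adjusted p = 0.0142) and not by edgeR (adjusted p = 0.482). The unadjusted p was under 0.05 for 0 of the 8 factors at day 1, 0 at day 2 and 3 at day 4 (2 without Elf5, whose day 4 controls were all at 0), beside 15.6%, 5.23% and 7.22% of all genes. The difference of the effect between days was called by edgeR for 0 factors and 0% of all genes (by limma-voom for 0 factors and 1 gene), and 8.56% of all genes but none of the factors had an unadjusted p under 0.05.

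**Figure D2:**
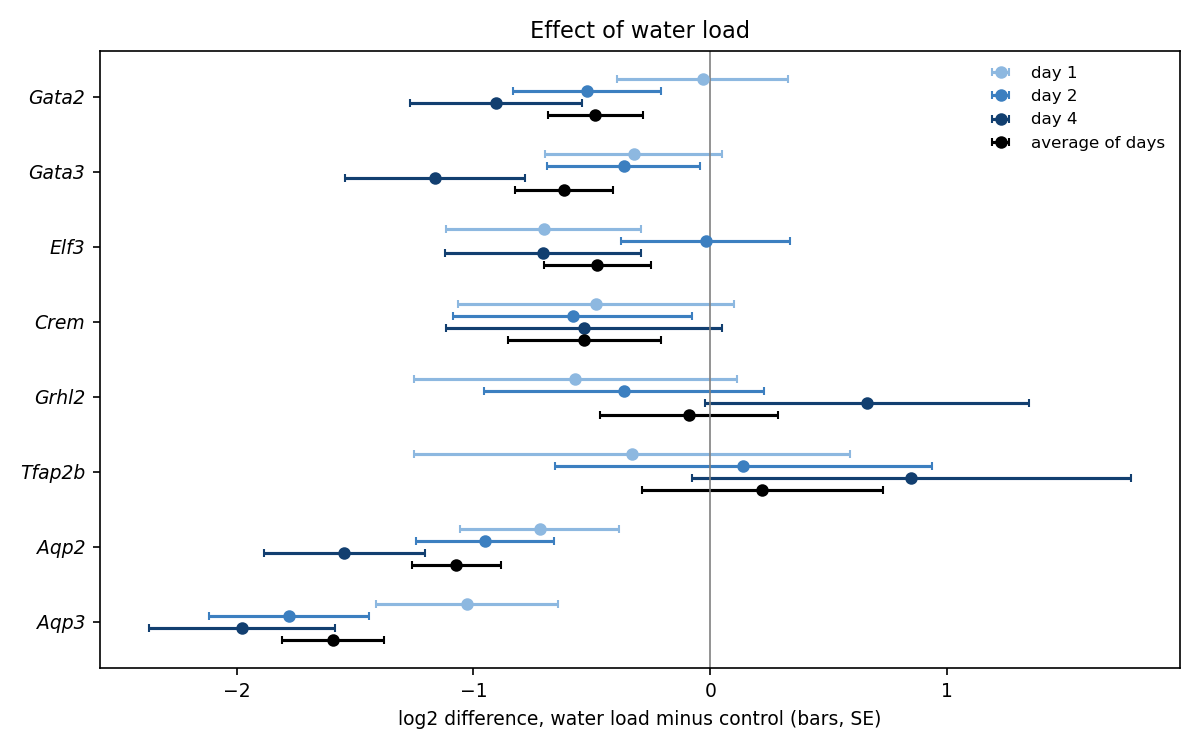
Log2 difference of water-loaded minus control rats for 6 factors, Aqp2 and Aqp3 at day 1, day 2, day 4 and over the average of the days, from the edgeR fit, with bars of 1 SE. Gata3, Gata2, Elf3 and Crem lie between -0.62 and -0.48 over the average, with wider bars for Grhl2 and Tfap2b, and Aqp2 lies at -1.07.

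Gata3 (ENSRNOG00000019336) is a zinc finger factor required in mouse for formation of the ureteric bud and collecting system. At day 1 its CPM were 168.7, 223.7 and 167.7 in the control rats and 115.6, 230.4 and 101.6 in the water-loaded rats. At day 2 they were 144.3, 291.3, 277.9 and 173.1 against 161.0, 189.2, 137.4 and 200.01. At day 4 they were 501.8, 671.2 and 347.03 against 142.1, 212.7 and 324.2. The groups overlapped at days 1 and 2, and at day 4 every water-loaded rat was below every control rat, as for 6.8% of all genes tested. The 3 day 4 controls were the highest of all 20 rats. Over the average of days the log2 difference was -0.62 (SE 0.21, 1.53-fold lower, edgeR adjusted p = 0.192). An exact permutation of treatment within days gave p = 0.0138, two-sided and unadjusted, over 28000 arrangements. By day the log2 differences were -0.32, -0.37 and -1.16, and their difference between days had an edgeR adjusted p = 0.813. At day 4 no p under 0.1 can come from an exact permutation of 3 against 3, and 0.1 was found.

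Gata2 (ENSRNOG00000012347) is the related GATA factor whose loss in mouse renal tubules lowers Aqp2. Its CPM at day 1 were 590.9, 310.3 and 206.1 in control and 403.1, 314.8 and 365.1 in water-loaded rats. The day 2 values were 750.9, 1028, 811.1 and 454.5 against 496.3, 415.6, 543.4 and 668.3. At day 4 they were 982.5, 1135 and 554.2 against 400.2, 430.3 and 598.1. The groups overlapped at every day, at day 4 through 1 rat of each. The average log2 difference was -0.48 (SE 0.20, 1.40-fold lower, edgeR p = 0.0251, adjusted p = 0.285), and the exact permutation p was 0.0864. By day it was -0.03, -0.52 and -0.90, with an edgeR adjusted p = 0.846 for the difference between days.

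Without water load the means of both GATA factors were higher at days 2 and 4 than at day 1, though neither passed the test. Mean Gata3 in control rats was 186.7 ± 32.0 CPM at day 1 (n = 3), 221.6 ± 73.9 at day 2 (n = 4) and 506.7 ± 162.1 at day 4 (n = 3). Mean Gata2 was 369.1 ± 199.0, 761.2 ± 236.6 and 890.5 ± 301.0 CPM on the same days. The edgeR F test of days among control rats gave an adjusted p = 0.0525 for Gata3 and an adjusted p = 0.101 for Gata2. Of the 8 factors 0 were called there, beside 2.45% of all genes, so neither difference passed. At an unadjusted p under 0.05 there were 4 of the 8, or 3 without Elf5, whose control counts came almost wholly from 1 library, beside 22.5% of all genes. Gata3 lay close to the threshold and was called without water-loaded 2 of day 1 (edgeR adjusted p = 0.0303), while leaving out 1 library gave values up to 0.193. In water-loaded rats the Gata3 means were 149.2, 171.9 and 226.3 CPM and the Gata2 means 361.0, 530.9 and 476.2 CPM, with an edgeR adjusted p = 0.734 and 0.739 over the days. The corresponding Aqp2 means were 22430, 24370 and 41210 CPM in control rats (edgeR adjusted p = 0.169) and 13610, 12620 and 14130 CPM in water-loaded rats. The intercalated cell factor Foxi1 and the intercalated marker Kit were called over the days of control rats (edgeR adjusted p = 0.0237 and 0.0165), with Foxi1 at 315.9, 577.8 and 932.9 CPM. The stromal genes Col1a1 and Pdgfrb were called as well (adjusted p = 0.0419 and 0.0495), at 0.0287 and 0.0164 CPM in the day 4 controls.

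**Figure D3:**
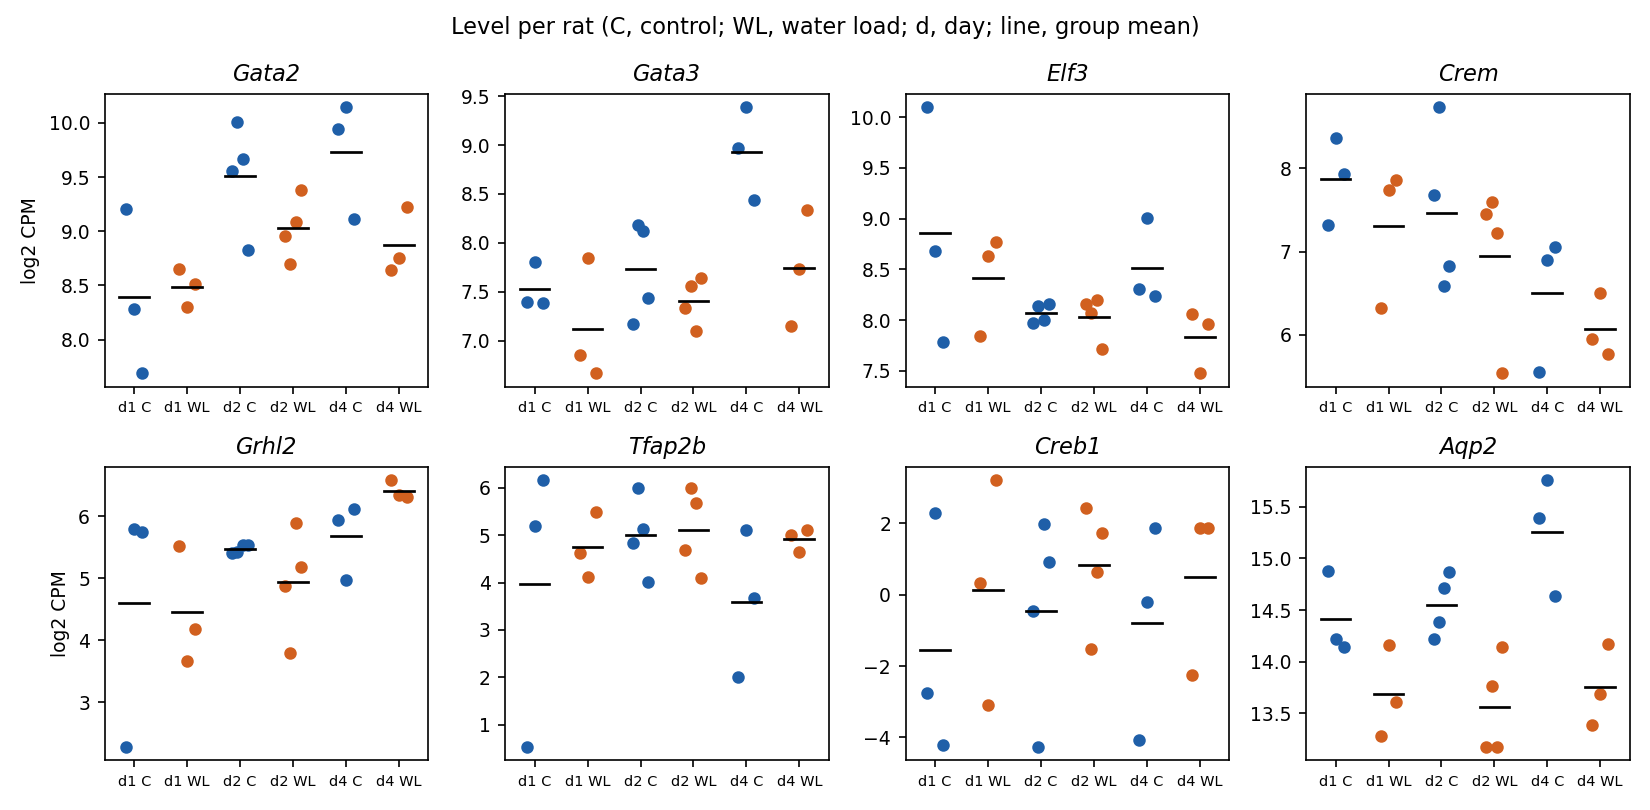
Level per rat (log2 CPM, prior count 2) of 7 factors and Aqp2 in the 6 groups, with control rats in blue, water-loaded rats in orange and the group mean as a line. The day 4 controls are the 3 highest rats for Gata3, and Creb1 and Tfap2b spread widely within groups.

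Elf3 (ENSRNOG00000006330) is an epithelium-specific ETS factor. Its day 1 CPM were 1099, 409.8 and 220.1 in control and 230.2, 396.1 and 435.3 in water-loaded rats, and the value of 1099 is the library that stood apart. The day 2 values were 250.4, 281.7, 255.8 and 285.3 against 286.03, 267.8, 293.6 and 210.5. At day 4 they were 316.8, 514.9 and 302.2 against 267.8, 177.9 and 249.1. The groups overlapped at days 1 and 2, and at day 4 every water-loaded rat was below every control rat, as for 6.8% of all genes. The average log2 difference was -0.48 (SE 0.23, edgeR p = 0.0493, adjusted p = 0.369, exact permutation p = 0.149). By day it was -0.70, -0.02 and -0.71, and without control 1 of day 1 the day 1 value was 0.17. Over the days of control rats the edgeR adjusted p was 0.183. Elf3 was called there without control 3 of day 1 (adjusted p = 0.0443), while leaving out 1 library gave values up to 0.510.

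Elf5 (ENSRNOG00000008282), an ETS factor found in principal cells of the mouse, was close to undetected. It had 0 counts in 12 of 20 libraries and 168 counts in all. Its 5 libraries with 10 counts or more were control 3 of day 1 (53), water-loaded 1 and 3 of day 1 (26 and 33) and water-loaded 2 and 3 of day 4 (40 and 12). The 3 day 4 controls were at 0, which allows up to 0.0926 CPM at the shallowest of them. It passed the filter through a few libraries, so no fold is given.

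Among the factors of the cAMP pathway, Creb1 (ENSRNOG00000013412) encodes the activator that protein kinase A phosphorylates, and Crem (ENSRNOG00000014900) encodes related activators and the short repressor ICER, which cAMP induces from an internal promoter. Gene counts do not separate the Crem products. Creb1 had few reads, 1 to 423 counts per library, with CPM of 0.110, 4.84 and 0.0164 in the day 1 controls and 1.21, 0.0794 and 9.22 in the water-loaded rats. At day 2 they were 0.685, 0.0142, 3.93 and 1.85 against 5.42, 0.312, 1.52 and 3.32, and at day 4 0.0214, 0.833 and 3.61 against 0.172, 3.65 and 3.64. The groups overlapped at every day, rats of the same group lay far apart, and the average log2 difference of 0.84 had an SE of 1.12 (edgeR adjusted p = 0.859).

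Crem was abundant and varied widely between rats of 1 group. Its CPM at day 1 were 159.6, 331.0 and 244.6 in control and 79.8, 213.8 and 233.1 in water-loaded rats. At day 2 they were 205.99, 427.9, 96.1 and 113.1 against 174.4, 193.1, 149.8 and 46.4. At day 4 they were 47.1, 119.5 and 133.0 against 61.6, 90.6 and 54.7. The groups overlapped at each day. The average log2 difference was -0.53 (SE 0.32, edgeR adjusted p = 0.514), and the day values of -0.48, -0.58 and -0.53 were close to each other. Levels were lower at day 4 in both treatments, with means of 245.1, 210.8 and 99.9 CPM in control and 175.6, 140.9 and 68.97 CPM in water-loaded rats. The edgeR F tests over the days gave an adjusted p = 0.303 and 0.484, so this did not pass.

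Cebpb (ENSRNOG00000057347), a leucine zipper factor of cytokine and stress responses, had 73 counts in all and 0 in 6 libraries. Of these, 36 came from control 1 of day 1, the library that stood apart, and the highest count elsewhere was 9. It did not pass the filter and was not tested in the main fit. In the alternative fit without the filter it was not called over the average (edgeR adjusted p = 0.374). Its slope on Aqp2 over all rats was not called there either (edgeR adjusted p = 0.171).

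Tfap2b (ENSRNOG00000011823), an AP-2 factor of distal nephron development in mouse, was 30.3 ± 23.3 CPM in control and 33.6 ± 15.2 CPM in water-loaded rats (n = 10 each). Its CPM at day 1 were 1.41, 36.5 and 71.3 in control and 24.6, 17.4 and 44.8 in water-loaded rats. At day 2 they were 28.7, 63.3, 35.1 and 16.1 against 25.8, 63.8, 51.0 and 17.1, and at day 4 3.96, 34.4 and 12.7 against 32.2, 24.9 and 34.7. The groups overlapped at every day. The average log2 difference was 0.22 (SE 0.51, edgeR adjusted p = 0.960).

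Grhl2 (ENSRNOG00000007000), a Grainyhead factor that sets junctional genes and the epithelial barrier of the mouse collecting duct, had log2 differences of unlike sign between days. Its CPM at day 1 were 4.81, 55.6 and 53.5 in control and 46.0, 12.6 and 18.2 in water-loaded rats. The day 2 values were 42.7, 43.1, 46.2 and 46.6 against 29.2, 13.8, 59.4 and 36.3. At day 4 they were 61.2, 31.3 and 69.8 against 95.8, 81.5 and 79.3. The control value of 4.81 is again the library that stood apart, and at day 4 every water-loaded rat was above every control rat, as for 7.93% of all genes. The log2 differences were -0.57, -0.36 and 0.66 by day and -0.09 over the average (SE 0.38, edgeR adjusted p = 1.000). Their difference between days had an edgeR adjusted p = 0.948. In water-loaded rats the means were 25.6, 34.7 and 85.5 CPM over the days (edgeR adjusted p = 0.388). None of the 8 factors was called over those days, where 0.263% of all genes were, and 12.1% of all genes had an unadjusted p under 0.05.

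Each factor was then set against Aqp2 over the rats, as the slope of its log2 level on log2 Aqp2 in edgeR, adjusted over the 14471 other genes, and as a correlation of log2 CPM. Gata3 was the 1 of 8 factors called over all 20 rats, beside 1.14% of all genes. Its slope was 0.78 (SE 0.13, adjusted p = 0.00722), less steep than that of Aqp3 (1.27, SE 0.16, adjusted p = 0.000529). Pearson's r of Gata3 with Aqp2 was 0.777 and Spearman's rho 0.702 (100000 permutations, p = 6e-05 and 0.00087). By r it ranked 23 of 7385 genes compared (mean of at least 10 CPM). Without the 2 rats farthest from the median of Aqp2, controls 1 and 2 of day 4, r was 0.569 (permutation p = 0.014).

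The Gata3 relation rested in part on the day 4 controls. Without those 3 libraries the slope was 0.47 and not called (edgeR adjusted p = 0.507; r = 0.522, permutation p = 0.0316). Without all day 4 libraries it was 0.44 (edgeR adjusted p = 0.661; r = 0.566, permutation p = 0.036). Leaving out control 2 of day 4 alone also ended the call (slope 0.68, edgeR adjusted p = 0.0603). Each of these choices was made after the data were seen, except leaving out 1 library. Within 1 treatment r was 0.760 in the 10 control rats (rho 0.60, permutation p = 0.0111 and 0.0732) and 0.739 in the 10 water-loaded rats (rho 0.758, permutation p = 0.016 and 0.0147). Without the 2 farthest rats of each treatment these fell to values of 0.147 and 0.531, and neither relation held (permutation p = 0.718 and 0.173). Those left out were controls 1 and 2 of day 4, and water-loaded 3 of day 4 and water-loaded 2 of day 1. By day r was 0.642 at day 1 (n = 6, exact p = 0.157), 0.563 at day 2 (n = 8, exact p = 0.146) and 0.975 at day 4 (n = 6, exact p = 0.00278). Each day holds the treatment difference as well. At day 4 every water-loaded rat was below every control rat for both Gata3 and Aqp2.

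**Figure D4:**
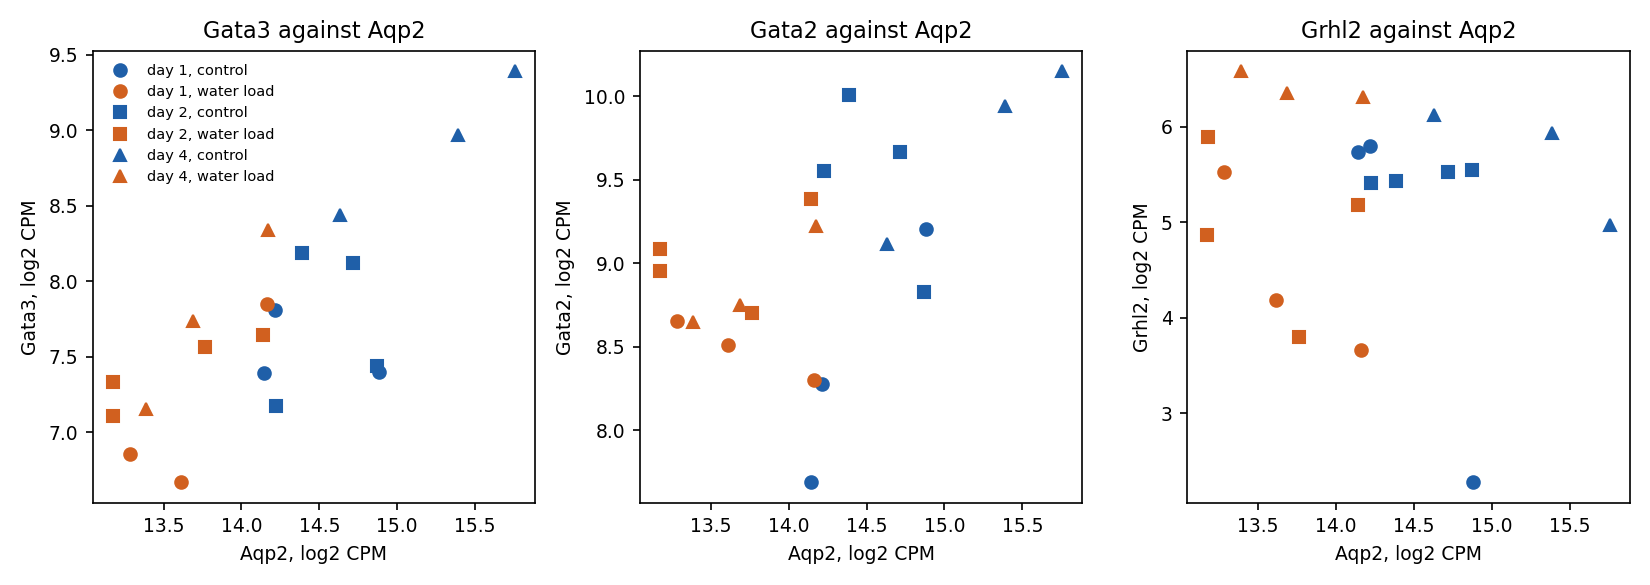
Log2 CPM of Gata3, Gata2 and Grhl2 (vertical axes) against log2 CPM of Aqp2 (horizontal axes), 1 point per rat, with colour for treatment and shape for day. For Gata3 and Gata2 the points at the upper right are 2 of the day 4 controls, and r over all rats was 0.777 and 0.549.

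Differences between groups were taken out by using deviations from the 6 group means. The Gata3 slope within groups was 0.71 (SE 0.24, edgeR p = 0.00775, adjusted p = 0.236), with r = 0.643 and rho = 0.635 (permutation within groups, p = 0.00874 and 0.00945). Without the 2 rats farthest in these Aqp2 deviations, water-loaded 4 of day 2 and control 2 of day 4, r was 0.605 (permutation p = 0.0259). Within groups 0 of the 8 factors were called, beside 0.152% of all genes, and 2 had an unadjusted p under 0.05, beside 10.9%. The second was Grhl2, with a slope of -1.12 (SE 0.48, edgeR p = 0.0314, adjusted p = 0.389) and r = -0.595 (rho -0.549, permutation p = 0.0158 and 0.0395). Without the same 2 rats, water-loaded 4 of day 2 and control 2 of day 4, r of Grhl2 was -0.653 (permutation p = 0.0035). Without the 2 day 1 libraries that stood apart it was -0.460 (permutation p = 0.173), and over all rats its r was -0.123. At day 4 alone r of Grhl2 was -0.887 (n = 6, exact p = 0.00139). That day holds the treatment difference as well.

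Gata2 had a slope of 0.49 over all rats (SE 0.15, edgeR p = 0.00348, adjusted p = 0.121) and r = 0.549 (rho 0.562, permutation p = 0.0118 and 0.0116). Without the 2 farthest rats, controls 1 and 2 of day 4, r was 0.292 (permutation p = 0.24), so the relation rests on those day 4 controls. At day 4 alone, which holds the treatment difference as well, r was 0.973 (n = 6, exact p = 0.00417). In the 10 water-loaded rats it was 0.109 (permutation p = 0.759). Elf3 had r = 0.412 (rho 0.376, permutation p = 0.0699 and 0.105). Tfap2b, Creb1, Crem and Grhl2 had r of -0.442, -0.268, -0.102 and -0.123. Crem in the 10 control rats had r = -0.723 (rho -0.733, permutation p = 0.0185 and 0.0213; r = -0.732 and p = 0.0475 without the 2 farthest rats). Its r was -0.235 in the water-loaded rats (permutation p = 0.5), and the difference was not tested. These are 8 relations over all rats, with more by treatment and day, and their permutation p-values are not adjusted.

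**Figure D5:**
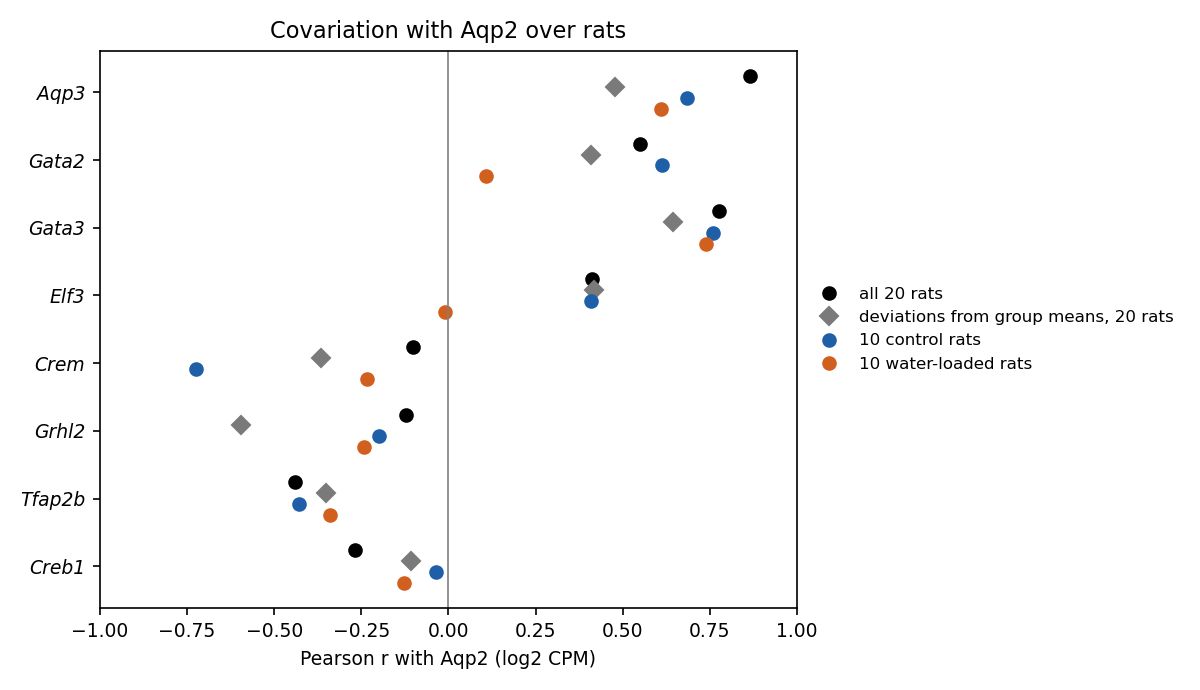
Pearson r of each factor, and of Aqp3, with Aqp2 (log2 CPM) over all 20 rats, for deviations from group means, and in the 10 control and 10 water-loaded rats separately. Gata3 lies between 0.643 and 0.777 in all 4, while Gata2 is at 0.109 and Elf3 at -0.01 in water-loaded rats.

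Levels of other cells' markers were set beside the factors. The mean of the principal cell genes without Aqp2 and Aqp3 had r = 0.143 with Gata3 and 0.379 with Aqp2 over the 20 rats. The mean of the intercalated markers had r = 0.239 with Gata3 and -0.182 with Aqp2. The log2 summed level of the immune markers had r = -0.524 with Gata3 (rho -0.275) and -0.498 with Aqp2 (rho -0.364), and that of the stromal and endothelial markers -0.430 and -0.156. For the proximal tubule markers r was -0.180 with Gata3 and 0.0390 with Aqp2, and for the thick limb and distal tubule markers -0.199 and -0.102. The number of detected genes had r = -0.270 with Gata3 and -0.374 with Aqp2. For Grhl2 and Elf3 the intercalated markers gave r of 0.532 and -0.553, and the number of detected genes 0.466 and -0.558. For Creb1 the number of detected genes gave 0.538. These values are descriptions over libraries that also differ in treatment and day, and their part in the results was not tested.

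Of the 21 pairs among 7 factors, Gata2 with Gata3 had r = 0.604 (rho 0.526, permutation p = 0.0047 and 0.0184, not adjusted). This r was 0.517 without the 2 rats farthest from the median of Gata2 and 0.365 within groups. Elf3 with Grhl2 had r = -0.713 (rho -0.391, permutation p = 0.0018 and 0.0904). This r was -0.434 without the 2 rats farthest from the median of Elf3 and -0.784 within groups. The genes whose log2 CPM followed each factor most closely over the 20 libraries, of the 7385 compared, were Tsen15 (r = 0.840) and Evl (0.835) for Gata3. For Gata2 they were Mal (0.815) and Tmem115 (0.795), for Elf3 Npepl1 (0.860) and Mbd2 (0.850), and for Crem Atp1b1 (0.819) and Pdcd10 (0.811). For Grhl2 they were Cyba (0.871) and Ccdc61 (0.865), and for Tfap2b Clk4 (0.917) and Tor1aip2 (0.855). For the thinly counted Creb1 they were Camsap1 (0.744) and Zfp746 (0.722), and for Elf5, at 0 in 12 libraries, Tanc1 (0.588) and Tmem259 (0.544), over 7386 genes. Aqp2 itself was followed most closely by Nol7 (0.895) and Ppib (0.876). These points share library depth and composition, so the values are descriptions.

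The relatives of each factor were examined as lists. Over the average of days 0 genes were called by edgeR in the GATA, ETS, AP-2, C/EBP, CREB and ATF, or Grainyhead and CP2 lists, with 3, 18, 4, 7, 17 and 4 genes tested. Their median log2 differences were -0.23, 0.30, -0.53, -0.85, -0.16 and 0.13, beside 0.01 over all genes. All 7 genes tested of the C/EBP list, which also holds the pseudokinases Trib1 and Trib3, had values below 0, as had 49.0% of all genes, and Cebpd had the smallest p (log2 difference -0.98, SE 0.45, edgeR adjusted p = 0.346), although its mean CPM of 86.3 and 92.4 in control and water-loaded rats did not show that direction. Among the others Tfap2a was at -1.17 (SE 0.55, adjusted p = 0.358), Crebbp, a coactivator of CREB, at -0.63 (SE 0.30, adjusted p = 0.363) and Tfcp2l1, a collecting duct factor, at 0.25 (SE 0.21, adjusted p = 0.711). Spi1, the ETS factor of myeloid cells, was at 0.352 and 1.57 CPM in control and water-loaded rats (edgeR adjusted p = 0.284) and at 0 counts in 7 libraries. Trps1 had the smallest p of the GATA list and was at 0 in 8 libraries (edgeR adjusted p = 0.440).

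Over the days of control rats, 2 of the 7 genes of the C/EBP list and 2 of the 17 of the CREB and ATF list were called by edgeR, beside 2.45% of all genes. The C/EBP genes were Cebpg (109.8, 40.7 and 19.2 CPM at days 1, 2 and 4, adjusted p = 0.0282) and Cebpd (221.4, 17.8 and 42.5 CPM, adjusted p = 0.0307). Those of the other list were the stress-responsive factors Atf3 (4552, 344.3 and 217.4 CPM, adjusted p = 0.0212) and Atf4 (1090, 488.6 and 336.8 CPM, adjusted p = 0.0219). All were highest at day 1. Cebpd was also called over the days of water-loaded rats (286.2, 5.19 and 14.8 CPM, edgeR adjusted p = 0.00323).

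A list of 13 immediate genes that cAMP induces in many cells was set beside the factors. Whether CREB drives them in these ducts was not tested. Over the average 12 of the 13 were lower under water load, beside 49.0% of all genes, with a median log2 difference of -0.83, but 0 were called by edgeR. The list's median was -1.37, -0.70 and -0.41 at days 1, 2 and 4, with 12, 13 and 10 genes lower. Rats of the day 1 controls differed widely, with Fosb at 1083 ± 1317, Dusp1 at 606.0 ± 757.9 and Fos at 2996 ± 2772 CPM (n = 3). Nr4a1 had the smallest p (log2 difference -1.01, SE 0.39, adjusted p = 0.252). All 13 had a positive slope on Aqp2 over all rats, with a median of 0.73 beside 0.02 over all genes. Of the 13, 0 were called and 8 had an unadjusted p under 0.05, beside 13.4% of all genes. This slope over all rats includes the treatment difference, in which 12 of the 13 were lower, so it is not a separate observation. For the slope within groups 10 of the 13 were positive and 3 negative, with a median of 1.03 beside -0.11 over all genes. There 0 were called by edgeR, and 4 had an unadjusted p under 0.05, beside 10.9% of all genes. Fosb was called over the days of control rats (1083, 37.7 and 54.7 CPM, edgeR adjusted p = 0.0173).

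Among 27 other kidney epithelial factors 0 were called over the average, where Klf4 had the smallest p (log2 difference -2.13, SE 0.73, edgeR adjusted p = 0.201). Pax8, a factor of kidney development, was called in its covariation with Aqp2 within groups (slope 1.21, SE 0.22, edgeR adjusted p = 0.0392) and not over all rats (slope 0.64, adjusted p = 0.122). In the intercalated cell factor list of 5 genes tested, Hmx2 was called over the average (2178 ± 550.9 against 1149 ± 257.8 CPM, log2 difference -0.92, edgeR adjusted p = 0.00202) and in its covariation with Aqp2 over all rats (slope 0.67, SE 0.11, adjusted p = 0.00478). Foxp1 of that list was called over the days of control rats (99.4, 14.8 and 21.9 CPM, edgeR adjusted p = 0.0307). Of the principal cell genes other than Aqp3, Avpr2, the vasopressin V2 receptor, was called in its covariation with Aqp2 over all rats (slope 0.44, SE 0.11, edgeR adjusted p = 0.0446). In the marker lists of other cells 0 genes were called over the average. Their smallest p-values belonged to Slc5a2 (0.111 and 16.7 CPM in control and water-loaded rats, edgeR adjusted p = 0.126), Atp6v1b1 (1452 and 2131 CPM, adjusted p = 0.126), Slc12a1 (27.4 and 21.4 CPM, adjusted p = 0.316), Pdgfrb (3.64 and 3.27 CPM, adjusted p = 0.433) and Ptprc (0.0457 and 0.872 CPM, adjusted p = 0.216). The Slc5a2 mean of water-loaded rats came from day 1 (52.4 ± 90.5 CPM, n = 3), with 1.39 and 1.32 CPM at days 2 and 4. For Slc12a1 and Pdgfrb the log2 differences averaged over days were above 0 (2.42 and 1.80), although their means over all days were lower in water-loaded rats.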

How the data were processed

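RNA-seq of microdissected cortical collecting ducts was measured in 20 rats, grouped by day and water intake from the sample titles. The authors deposited whole-number read counts per gene, 1 column per rat, and FPKM values of the same libraries. The submitters' processing notes name Trimmomatic 0.32, STAR 2.4.0.1, SAMtools, HTSeq and the build rn6, without settings. Whether strand was used in counting, and which annotation, is not stated in the sources used here, so overlapping or antisense genes cannot be separated. Per the labels' protocols, cDNA was made in the lysate and amplified as for single cells. Without molecular identifiers, limits from a count of 0 cover counting error only. Lines with no gene name took 31.5% to 35.6% of the counts and were left out. Promoter windows carry GRCr8 coordinates. Of the Ensembl identifiers 0 matched the reference gene table, so names come from the deposited file.

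The edgeR 4.0.16 package (R 4.3.3) tested the counts (TMM, filterByExpr on group, 14472 genes, robust quasi-likelihood fit of 6 group means over all 20 libraries). Benjamini-Hochberg adjustment ran over every tested gene, and 0.05 was the threshold. Slopes on log2 Aqp2 CPM were fitted with and without the group means. Log2 CPM used a prior count of 2. Correlations were tested with 100000 permutations (within groups for deviations), or exactly for 8 rats or fewer, in Python with scipy 1.17.1, two-sided. The fits were tested on simulated data. Alternatives used limma 3.58.1, also on log2(FPKM + 1) and log2(FPKM + 0.1), and DESeq2 1.42.0.

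The 9 factors and the gene lists were chosen with earlier results of these data known. The lists held 1 set of relatives per factor family, other kidney and intercalated cell factors, cAMP-responsive genes and cell type markers; Nfatc1, Sox4 and Pecam1 were not matched by symbol. The text names every factor, Aqp2 and Aqp3, up to 2 called genes per list and contrast, the gene with the smallest p where none was called over the average, and the 2 genes most like each factor. Gene counts of the text refer to symbols; Nr3c1 had 2 identifiers.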

Additional observations from a re-analysis of the deposited data

Results flagged for a closer look

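Elf5 in water-loaded 4 of day 2 was marked as a library far from the others of its group. It held 2 counts (0.0495 CPM), and the other 3 libraries held 0. The value lies below the 3 counts taken as the limit of detection. Of 16 groups of 4 rats examined this was the 1 marked. With the other 3 libraries at 0, any count in the remaining library would be marked, so no rate of chance marks applies to it.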

How the results depend on the processing

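The factors called numbered 0 for the water load effect over the average, at each day and between days, for the days among water-loaded rats and for the slope within groups, under every alternative run. DESeq2 was run only for the effects over the average and at each day. For the days among control rats 1 factor was called with limma-voom and with the proximal tubule score as covariate, and 2 with limma on log2(FPKM + 1) and on log2(FPKM + 0.1). Leaving out 1 library gave 0 to 1 there. Over all rats the slope on Aqp2 was called for 0 factors without the 3 day 4 control libraries and without all day 4 libraries, and for 0 to 1 when 1 library was left out. Over all alternatives the average log2 difference stayed below 0 for Gata3 (-0.79 to -0.46), Gata2, Elf3 and Crem.

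Values of factors that were not called changed sign as follows, and the causes were not tested. For the effect of water load averaged over days, Creb1 was -0.46 with detected genes as covariate, and Grhl2 was 0.0597 with the proximal tubule score, 0.10 and 0.14 with limma on log2(FPKM + 1) and log2(FPKM + 0.1), and 0.16 without all day 1 libraries. For the effect of water load at day 1, Gata2 was 0.19 with limma-voom, 0.10 with the replicate block, 0.0812 with detected genes, 0.00706 with the proximal tubule score, 0.57 without both libraries that stood apart, 0.21 with limma on either FPKM scale (0.209 and 0.210), and 0.00156 with that day alone. Tfap2b at day 1 was 0.46 with limma-voom, 0.45 with the replicate block, 0.15 with the proximal tubule score, and 0.23 and 0.74 with limma on log2(FPKM + 1) and log2(FPKM + 0.1). Elf3 at day 1 was 0.0694 without both libraries that stood apart, and Creb1 -0.0510 with detected genes. For the effect of water load at day 2, Elf3 was 0.0797 with detected genes and 0.13 with the proximal tubule score, which gave -0.10 for Tfap2b and -1.15 for Creb1. For the effect of water load at day 4, detected genes as covariate gave -1.44 for Creb1, 0.0132 for Crem and -0.13 for Grhl2.

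For covariation with Aqp2 within groups, Tfap2b was 0.17 without both libraries that stood apart, and Creb1 was 0.40 and 0.92 with limma on log2(FPKM + 1) and log2(FPKM + 0.1) and 0.13 without the 3 day 4 control libraries. For covariation with Aqp2 over all rats, Crem was 0.31 without the 3 day 4 control libraries and 0.16 without all day 4 libraries, and Grhl2 was 0.0697 with detected genes and 0.21 and 0.24 on the FPKM scales. The correlation with Aqp2 of Creb1 within groups was 0.106 without both libraries that stood apart, that of Crem over all rats 0.128 and 0.0283 without the day 4 controls and without all of day 4, and that of Grhl2 over all rats 0.0463 without both libraries.

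Leaving out 1 library gave these ranges. The average ran from -0.34 to 0.0364 for Grhl2. Day 1 ran from -0.32 to 0.48 for Gata2, -1.09 to 0.17 for Elf3, -0.90 to 0.61 for Tfap2b and -1.34 to 5.77 for Creb1. Day 2 ran from -0.0741 to 0.10 for Elf3, -0.20 to 0.56 for Tfap2b and -0.82 to 0.0205 for Crem. The slope within groups ran from -1.75 to 0.50 for Creb1, and over all rats from -0.24 to 0.0689 for Crem.

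Equal replicate numbers were checked as pairs by correlating deviations from the group means. Same-numbered rats correlated at 0.147 to 0.236 at day 2, where rats of other numbers reached 0.110 to 0.204, and at 0.0595 or less at days 1 and 4. Of the 10 pairs 4 correlated best with their own number, namely pairs 1, 2 and 4 of day 2 and pair 3 of day 1. The labels name no shared litter or day, so whether same-numbered rats share more than a number is not known. With the replicate block, 1 factor (Gata3) was called in the slope over all rats and 0 in each other comparison, as without it. Aqp2 lost its call over the average with the block (adjusted p = 0.185), with detected genes as covariate (0.0935), and without all day 1 libraries (0.0554), and leaving out 1 library gave 0.0113 to 0.0910. Counts over all genes also differed between edgeR and limma-voom for the days among water-loaded rats (38 and 101) and the slope within groups (22 and 69). Counts were few for Creb1, Elf5 and Cebpb, which limits their results, and the cause was not tested.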
